A study of Mus musculus with 26 samples.

Results

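The genes followed here are 8 that separate the classical from the nonclassical subset of mouse monocytes: Ly6c1, Ly6c2, Nr4a1, Ace, Treml4, Spn, Eno3 and Pglyrp1. They were chosen by name, and all 8 were found among the 50104 genes that the tables of 3 cell types share. RNA was sequenced from sorted bone marrow monocytes, small peritoneal macrophages (SPMs) and MHCII negative lung macrophages of naive female mice, either WT C57BL/6J or ACKR2-/-, which lack a scavenging receptor for inflammatory chemokines. The methods give an age of 8 to 10 weeks unless stated otherwise. There were 4 samples per genotype of monocytes and of SPMs, each sorted from 5 pooled mice, and 5 per genotype of lung macrophages, for which pooling is not mentioned and the methods state in general that a data point stands for 1 mouse. The ACKR2-/- mice came from an in-house homozygous colony and the WT mice were purchased, so that genotype and colony cannot be told apart. Monocytes were sorted as CD11b+ Ly6C+ cells without F4/80, lung cells as CD11b+ F4/80+ cells without Ly6C or MHCII, and SPMs with no gate on Ly6C. Ly6C is the protein of Ly6c1 and Ly6c2, so the gates bear on the contrast of these 2 genes between monocytes and lung cells. Nonclassical monocytes have little Ly6C, so the gates bear on that contrast for the other genes that separate the subsets as well. The part of the gates in these contrasts was not tested.

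Classical monocytes carry much Ly6C, leave the marrow through CCR2 and mature into macrophages in tissue. Nonclassical monocytes have little Ly6C, patrol the walls of small vessels, and arise from classical cells under the control of the nuclear receptor Nr4a1. Both subsets share most myeloid genes, and the genes followed here are among those commonly used to tell them apart.

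Ly6c1 and Ly6c2 are neighbouring genes on the minus strand of chromosome 15 and code for closely related GPI-anchored proteins. In GRCm38, Ly6c1 lies at chr15:75044018-75048830 and Ly6c2 at chr15:75108158-75111970. Nr4a1 lies further along the same chromosome, at chr15:101254269-101274795 on the plus strand. Ace lies at chr11:105967945-105989964 and Eno3 at chr11:70657202-70662513, both on the plus strand. Treml4 is at chr17:48264295-48275360 (plus), Spn at chr7:127132232-127137823 (minus) and Pglyrp1 at chr7:18871331-18890459 (plus). All 8 are annotated as protein coding.

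The 250 bases before the first listed RefSeq start of Ly6c1 and of Ly6c2 are shown because the pair, although neighbours, had different patterns across the cell types. The Ly6c1 window is chr15:75048838-75049087 and the Ly6c2 window chr15:75111972-75112221 (GRCm38.p6, RefSeq), both read 5′ to 3′ on the minus strand, with capitals for GAGGAAGT, letters of the kind bound by the myeloid factor PU.1.
Ly6c1: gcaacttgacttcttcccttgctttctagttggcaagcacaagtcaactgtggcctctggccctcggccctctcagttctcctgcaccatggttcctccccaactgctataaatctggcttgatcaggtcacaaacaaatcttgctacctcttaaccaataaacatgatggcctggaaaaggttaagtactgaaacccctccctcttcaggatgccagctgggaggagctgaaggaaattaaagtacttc
Ly6c2: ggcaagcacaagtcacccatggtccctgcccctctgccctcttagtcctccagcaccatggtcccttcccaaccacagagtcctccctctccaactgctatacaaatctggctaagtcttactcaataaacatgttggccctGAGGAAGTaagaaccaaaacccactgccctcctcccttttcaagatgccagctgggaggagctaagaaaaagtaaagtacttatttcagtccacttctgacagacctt
The longest run of bases that the windows shared was 20. The Ly6c2 window held GAGGAAGT once, with its first base 108 bases before the start, and the Ly6c1 window did not hold it on either strand. Of 32851 such windows of all genes, 2.44% held these letters. Both genes had a further listed start, and the windows before those starts held GAGGAAGT. In the windows of the other 6 genes, neither GAGGAAGT nor AAAGGTCA, the letters bound by Nr4a1 (1.34% of windows), nor TTGCNNAA, those of C/EBP factors (9.56% of windows), were found on either strand.

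Reads assigned to genes numbered 15450670 to 19218213 per monocyte sample, 12781144 to 35400034 per SPM sample and 19950019 to 29770252 per lung sample. Levels are given as CPM, reads of a gene scaled to library size, on a scale common to all 26 samples. Ackr2 had no read in any ACKR2-/- monocyte or SPM sample, 5 to 9 reads in the WT SPM samples and 2 reads in all in WT monocytes, and 7 to 50 reads in the ACKR2-/- lung samples. WT lung samples had 150 to 469 reads of it, except the library labelled WT replicate 5, which had 0. A separate lung sample, WT replicate 3, stood apart in the genes described here. H2-Ab1, an MHCII gene examined after its values were seen, was at 15833 CPM in it and at 211 to 1408 CPM in the other 9 lung samples, which were sorted as MHCII negative.

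A gene was called when its adjusted p (edgeR's quasi-likelihood test, Benjamini-Hochberg over all tested genes) was under 0.05 and its absolute log2 fold change over 0.5.

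Across the WT cell types, the lung samples carried by far the most RNA of Nr4a1, Ace, Treml4 and Eno3, and the monocytes the most of Ly6c2. WT monocytes had more Ly6c2, Pglyrp1, Nr4a1, Spn and Ace than WT SPMs and less Treml4, so that 6 of 8 genes were called (41.9% of all genes tested were called). Against WT lung macrophages, 6 of 8 were called as well (63.8% of all genes), with Ly6c2 higher in monocytes and Ly6c1, Nr4a1, Ace, Treml4 and Eno3 lower. Between WT SPMs and WT lung macrophages 7 of 8 were called, all lower in SPMs (62.3% of all genes). In bulk RNA, fewer cells of a type and less RNA per cell cannot be told apart. Tissue, table, sort gate and cell type cannot be told apart either, and only the lungs were digested with enzymes at 37 °C.

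**Figure D1:**
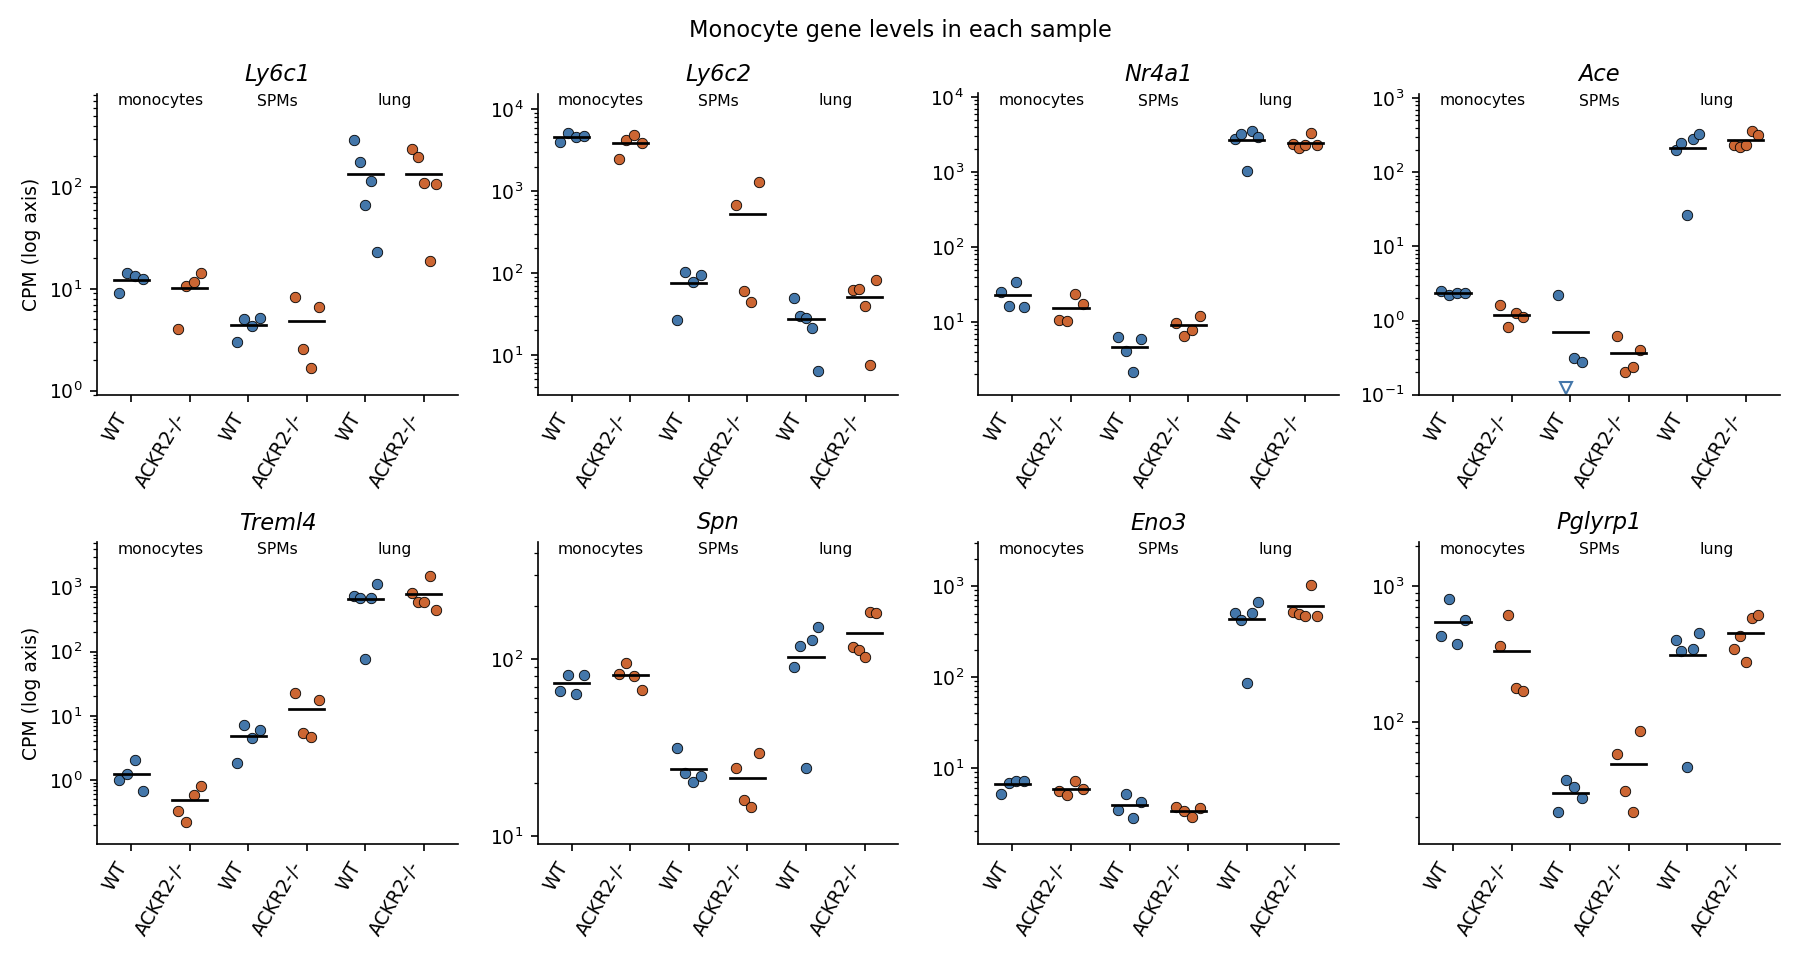
CPM (log axis) of each gene in each sample, by cell type and genotype (blue, WT; orange, ACKR2-/-), with a bar at the group mean and an open triangle for the WT SPM sample with 0 Ace reads. Nr4a1, Ace, Treml4 and Eno3 are highest in the lung groups, Ly6c2 in the monocytes, and 2 ACKR2-/- SPM samples at 684 and 1307 CPM stand above the other SPM samples for Ly6c2.

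Ly6c2, the main source of the Ly6C antigen on classical monocytes, was at 3965, 5091, 4579 and 4696 CPM in the WT monocyte samples. It was at 26.98, 101, 78.6 and 95.1 CPM in the WT SPM samples, and at 49.7, 29.8, 28.04, 21.2 and 6.38 CPM in the WT lung samples. Every monocyte value lay far above every SPM and lung value, whereas the SPM and lung ranges overlapped. Monocytes exceeded SPMs by 5.92 on the log2 scale (SE 0.90, adjusted p = 6.76e-06) and lung macrophages by 7.41 (SE 0.87, adjusted p = 6.71e-08). SPMs and lung macrophages differed by 1.48 (SE 0.69, adjusted p = 0.0652), which was not called.

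Ly6c1 was highest in the lung instead, with a mean of 135 ± 105 CPM (SD, n = 5) in WT lung macrophages, 12.3 ± 2.23 CPM (SD, n = 4) in WT monocytes and 4.42 ± 1.02 CPM (SD, n = 4) in WT SPMs. The lung values ran from 22.9 to 292 CPM, and even the lowest lay above the highest monocyte value of 14.3 CPM. The monocytes were lower than lung macrophages by a log2 fold change of -3.45 (SE 0.64, adjusted p = 5.22e-05), and their difference from SPMs of 1.47 (SE 0.65) was not called (adjusted p = 0.0691). Ly6c1 is also expressed by endothelial cells, and the 10 endothelial marker genes summed to 97.4 to 839 CPM in the WT lung samples, to 10.1 to 14.6 CPM in WT monocytes and to 2.32 to 3.26 CPM in WT SPMs. Within the lung, the samples with the least Ly6c1, the library labelled WT replicate 5 (22.9 CPM) and ACKR2-/- replicate 4 (18.6 CPM), also had the lowest endothelial sums, 97.4 and 106 CPM, and those with the most, WT replicate 1 (292 CPM) and ACKR2-/- replicate 1 (235 CPM), the highest, 839 and 728 CPM. The part of endothelial RNA in the Ly6c1 level was not tested. Ly6c1 and Ly6c2 transcripts share 2.29% and 1.42% of their 150-base stretches, and 32.8% and 14.4% of their 50-base stretches were shared with other genes, so the split of reads between the pair is uncertain for the lower gene in each cell type.

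Nr4a1, the nuclear receptor on which nonclassical monocytes depend and also an immediate early gene of many cells, was at 2771, 3200.0, 1029, 3506 and 2941 CPM in the WT lung samples. In WT monocytes it was at 25.2, 16.2, 34.03 and 15.8 CPM, and in WT SPMs at 6.32, 4.07, 2.18 and 5.97 CPM. No value of one cell type reached those of another. Monocytes were lower than lung macrophages by a log2 fold change of -6.88 (SE 0.44, adjusted p = 1.76e-12), a ratio of 118, and higher than SPMs by 2.27 (SE 0.37, adjusted p = 2.13e-05). A list of 16 other immediate early genes moved with it between monocytes and lung. All 16 were higher in WT lung macrophages than in WT monocytes, with a median log2 fold change of -4.51 against -0.34 over all genes. Of all 17792 genes tested, 7020 were called higher in lung macrophages. Between WT monocytes and WT SPMs the list went both ways, with 4 to 6 genes called higher and 4 to 6 lower across the settings. The list summed to 12440.3 to 16329.6 CPM in WT lung samples, 996 to 3695 CPM in WT monocytes and 468 to 724 CPM in WT SPMs, and its part in the Nr4a1 difference was not tested.

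Ace, which encodes angiotensin-converting enzyme, a marker of nonclassical monocytes and of lung endothelium, was at 197, 248, 26.3, 278 and 327 CPM in WT lung samples. It was at 2.501, 2.21, 2.39 and 2.35 CPM in WT monocytes. In WT SPMs, 29 of its 35 reads came from replicate 1, at 2.24 CPM, and the others were at 0, 0.311 and 0.275 CPM, of which a count of 0 allows up to 0.278 CPM in replicate 2. Lung macrophages exceeded both other types without overlap, with log2 fold changes of -6.51 (SE 0.63, adjusted p = 2.85e-09) for monocytes and -8.14 (SE 0.71, adjusted p = 5.19e-10) for SPMs against them. The higher level in monocytes than in SPMs, 1.63 (SE 0.66, adjusted p = 0.0475), overlapped between the groups. That call was lost when any WT monocyte sample was left out, without SPM replicate 2, 3 or 4, with RLE factors (adjusted p = 0.0698) and with only the 2 WT groups fitted (adjusted p = 0.113), and without SPM replicate 1 the difference was 3.62 (adjusted p = 0.000899). In the 2 lung samples with the lowest endothelial sums, Ace stood at 327 and 361 CPM, the highest values of their groups. The part of endothelial RNA in the Ace level was not tested. An antisense gene whose exons overlap Ace, Gm11651, had 7129 reads in the lung samples and none in the other cell types, beside 73989 reads of Ace, and without a stated strand setting reads of the pair cannot be told apart.

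Treml4, a receptor of the TREM family found on nonclassical monocytes and some macrophages, had the largest contrast between monocytes and lung cells. It was at 1.00, 1.23, 2.08 and 0.664 CPM in WT monocytes, 1.85, 7.32, 4.51 and 5.90 CPM in WT SPMs, and 738, 695, 77.9, 693 and 1123 CPM in WT lung macrophages. Lung values lay above all others, while 1 SPM sample fell within the monocyte range. Monocytes were 531-fold lower than lung macrophages (log2 fold change -9.05, SE 0.80, adjusted p = 4.89e-10) and 3.91-fold lower than SPMs (-1.97, SE 0.65, adjusted p = 0.0157). The latter call was lost without WT monocyte replicate 4 (adjusted p = 0.0530) or WT SPM replicate 2 (adjusted p = 0.0560).

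Eno3, the muscle form of the glycolytic enzyme enolase that is also high in nonclassical monocytes, was at 506, 421, 85.4, 501 and 675 CPM in WT lung macrophages. It was at 5.15 to 7.25 CPM in WT monocytes and 2.80 to 5.09 CPM in WT SPMs. The lung values were higher without overlap, with log2 fold changes of -6.06 (SE 0.44, adjusted p = 1.47e-11) for monocytes and -6.80 (SE 0.46, adjusted p = 6.18e-12) for SPMs against lung. Monocytes and SPMs did not overlap either, but their difference of 0.74 (SE 0.38, adjusted p = 0.128) was not called. It was called with only the 2 WT groups fitted (adjusted p = 0.0239), as was that of Ly6c1 between the same cells (adjusted p = 0.000405).

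Spn and Pglyrp1 set SPMs apart instead. Spn encodes the sialomucin CD43, carried by many leukocytes and most by nonclassical monocytes. It averaged 73.3 ± 9.71 CPM (SD, n = 4) in WT monocytes, 24.0 ± 4.96 CPM (SD, n = 4) in WT SPMs and 103 ± 49.1 CPM (SD, n = 5) in WT lung macrophages. SPMs were lower than monocytes by 1.61 on the log2 scale (SE 0.35, adjusted p = 0.000507) and lower than lung macrophages with a log2 fold change of -2.09 (SE 0.34, adjusted p = 9.89e-06). Monocytes and lung macrophages differed by -0.49 (SE 0.32, adjusted p = 0.189), with overlapping values. Without WT lung replicate 3, at 24.1 CPM, that difference was -0.74 and was called (adjusted p = 0.00744).

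Pglyrp1, a secreted protein that binds bacterial peptidoglycan and is stored in neutrophil granules, was at 432, 806, 375 and 570.3 CPM in WT monocytes and at 400.0, 332, 46.3, 346 and 450.1 CPM in WT lung macrophages. The 2 ranges overlapped, and the difference of 0.79 (SE 0.46, adjusted p = 0.135) was not called. WT SPMs, at 21.7 to 37.5 CPM, were 18.2-fold lower than monocytes (4.18 on the log2 scale, SE 0.56, adjusted p = 1.16e-06) and 10.5-fold lower than lung macrophages (-3.39, SE 0.53, adjusted p = 5.03e-06). Among the WT monocyte samples, 12 neutrophil marker genes, led by S100a9, summed to 93598 CPM in WT replicate 2, with the most Pglyrp1. They summed to 41540.4 CPM in WT replicate 3, with the least. In the lung samples those markers summed to 53.2 to 407 CPM. The monocyte gate left out cells with Ly6G, and the part of neutrophil RNA in the Pglyrp1 level of any cell type was not tested.

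**Figure D2:**
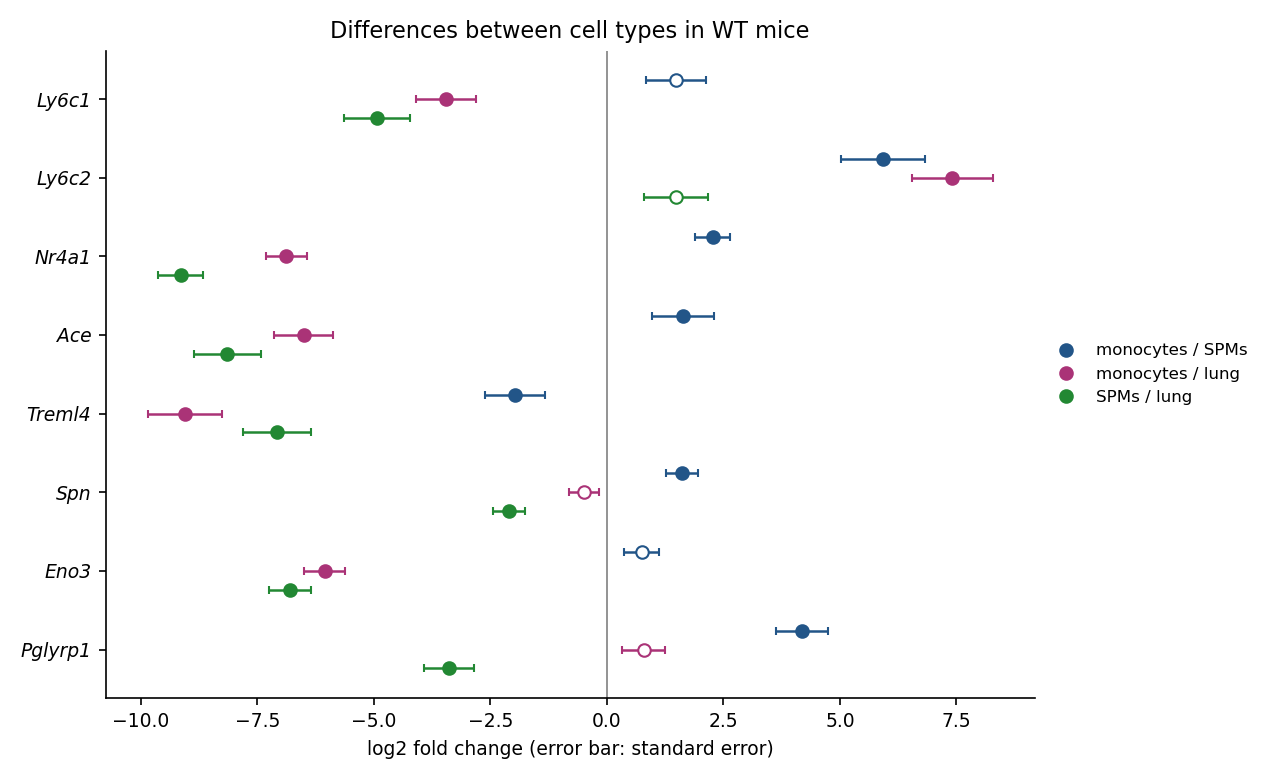
Log2 fold changes (points) and their standard errors (bars) between the WT cell types for each gene, in a fit of all 26 samples. Filled points were called. Nr4a1, Ace, Treml4 and Eno3 lie from -6.06 to -9.15 in both contrasts with lung, and Ly6c2 lies at 5.92 and 7.41 in the contrasts of monocytes with the other types.

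Per kilobase of gene model, which allows levels of different genes to be compared, Ly6c2 led in WT monocytes with 1673 ± 170.3 CPM per kb (SD, n = 4), followed by Pglyrp1 with 297 ± 104 CPM per kb, and the other 6 genes were at 0.446 to 15.6 CPM per kb on average. In WT lung macrophages the order was Nr4a1 (766 ± 276 CPM per kb, SD, n = 5), Treml4 (333 ± 188), Eno3 (251.6 ± 125), Pglyrp1 (171 ± 85.6), Ly6c1 (80.2 ± 62.5), Ace (40.7 ± 21.9), Spn (21.95 ± 10.5) and Ly6c2 (9.86 ± 5.72 CPM per kb). In WT SPMs the genes lay between 0.133 CPM per kb for Ace and 27.6 ± 12.3 CPM per kb (SD, n = 4) for Ly6c2.

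Further genes of the 2 subsets were taken from lists of 14 genes each. Of the 14 classical monocyte genes, 9 were higher and 5 lower in WT monocytes than in WT SPMs, among them Lcn2 (log2 fold change 9.0), Chil3 (7.02), Gsr (4.82) and Hp (4.46), with a median of 2.15 against 0.00 over all genes. Lower in monocytes were Ccr2, Cd14, Fn1, Ifitm3 and S100a4. Of all 17792 genes tested, 3569 were called higher and 3877 lower in monocytes. Against WT lung macrophages 11 of the 14 were higher, led by Lcn2 (6.89), F13a1 (4.64) and Vcan (4.33), and Cd14 was lower (-5.06). The median was 2.98 against -0.34 over all genes, of which 4338 were called higher and 7020 lower in monocytes. Between SPMs and lung macrophages, where 4126 of all genes were called higher in SPMs and 6956 lower, 5 of the 14 were higher in SPMs and 3 lower. The largest of these were Fn1 (6.15), Ccr2 (4.57), Gsr (-4.02) and Chil3 (-3.83), and the median was -0.18 against -0.41 over all genes. The neutrophil markers summed to 41540 to 93598 CPM in WT monocytes, 70.5 to 235 CPM in WT SPMs and 53.2 to 151 CPM in WT lung samples. The part of neutrophil RNA in the levels of the classical genes was not tested.

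Of the 14 nonclassical monocyte genes, 13 could be tested across the cell types. WT lung macrophages had more of 12 of them than WT monocytes, led by Cd300e (log2 fold change -11.11), Cd36 (-9.00), Itgax (-7.70) and Fabp4 (-7.39), and none was lower in lung. The median was -3.31 against -0.34 over all genes. Of all 17792 genes tested, 7020 were called higher in lung macrophages and 4338 lower. Against WT SPMs lung macrophages had more of 11 of the 13, led by Cd300e (-10.49), Cd274 (-4.96), Itgal (-4.77) and Adgre4 (-4.22), and none was lower in lung. The median was -2.48 against -0.41 over all genes, of which 6956 were called higher in lung macrophages and 4126 lower. SPMs in turn had more of 7 of the nonclassical genes than monocytes, led by Cd36 (-8.03), Fabp4 (-5.19), Itgax (-4.82) and Ear2 (-3.71), and less of Cx3cr1 and Itgal. Over all genes 3877 were called higher in SPMs than in monocytes and 3569 lower. Without WT lung replicate 3 the counts of 12 and 11 were unchanged.

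Of the 8 macrophage markers, 7 were called higher in WT lung macrophages than in WT monocytes under every setting, as most nonclassical genes were. In the main fit 7020 of all 17792 genes were called higher there. Against WT SPMs the macrophage markers did not follow the nonclassical genes, since 5 were called lower in the lung cells (4126 of all genes). C1qa, C1qb and C1qc, which form complement C1q and are made by most tissue macrophages, were lower in WT lung macrophages than in WT SPMs, by 2.02, 3.98 and 3.12 on the log2 scale, as were Mertk (2.04), an efferocytosis receptor, and the lysosomal Cd68 (0.93). Adgre1, the F4/80 gene used in the gate, was higher in the lung cells, with a log2 fold change of -1.40. Fcgr1 was not called. Among the lung samples C1qa was at 2049 CPM in WT replicate 3 and at 46.8 to 289.8 CPM in the other 9. The sum of the 8 macrophage markers was 10361 CPM in WT lung replicate 3 and 1163 to 2897 CPM in the other 9 lung samples, against 18169.8 to 32941 CPM in all SPM samples and 272 to 982 CPM in all monocyte samples. Of the 8 monocyte markers, Csf1r was higher in WT lung macrophages (1109 ± 305 CPM, SD, n = 5) than in monocytes (192 ± 39.7 CPM, SD, n = 4), as were Cd14 and Cd68, while Ccr2 and Lyz2 were lower. The remaining 3, Fcgr1, Itgam and Spi1, were not called. The lung samples labelled macrophages held high levels of the nonclassical monocyte genes. Their C1q and Mertk levels were called lower than those of SPMs and their Adgre1 level higher. Every lung value of C1qa, at 46.8 CPM or more, lay above every monocyte value, at 1.49 CPM or less. Mertk separated too, but narrowly and at few reads. Its lowest lung value was 0.737 CPM (22 reads, ACKR2-/- replicate 4) and its highest monocyte value 0.550 CPM (11 reads, WT replicate 1).

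Within the 10 lung samples, WT replicate 3 was lowest for 6 of the 8 genes. Nr4a1 stood at 1029 CPM in it and at 2086 to 3506 CPM in the other 9. Ace was at 26.3 CPM against 197 to 361 CPM, Treml4 at 77.9 against 445 to 1498 CPM, Spn at 24.1 against 90.9 to 184 CPM, Eno3 at 85.4 against 421 to 1037 CPM, and Pglyrp1 at 46.3 against 276 to 618 CPM. Ly6c1 (66.9 CPM) and Ly6c2 (28.04 CPM) of this sample lay inside the range of the others. The sum of the 14 nonclassical genes was 2138 CPM in it and 6791 to 12271 CPM in the others, and its sums of macrophage, B cell and dendritic cell markers were the highest of the lung samples, at 10361, 2938 and 855 CPM, against at most 2897, 1271 and 237 CPM. The part of other cells in its levels was not tested.

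A different pair of lung samples, the library labelled WT replicate 5 and ACKR2-/- replicate 4, had the least Ly6c1 and Ly6c2. Ly6c2 was at 6.38 and 7.503 CPM in them and at 21.2 to 82.6 CPM in the other 8. Their Treml4 levels, 1123 and 1498 CPM, and Eno3 levels, 675 and 1037 CPM, were the highest of the 10. Both also had the lowest sums of epithelial markers, led by Sftpc, at 345 and 215 CPM against 4497 to 15941 CPM in the other 8. One of them is labelled WT and the other ACKR2-/-, but the library labelled WT replicate 5 had 0 Ackr2 reads.

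**Figure D3:**
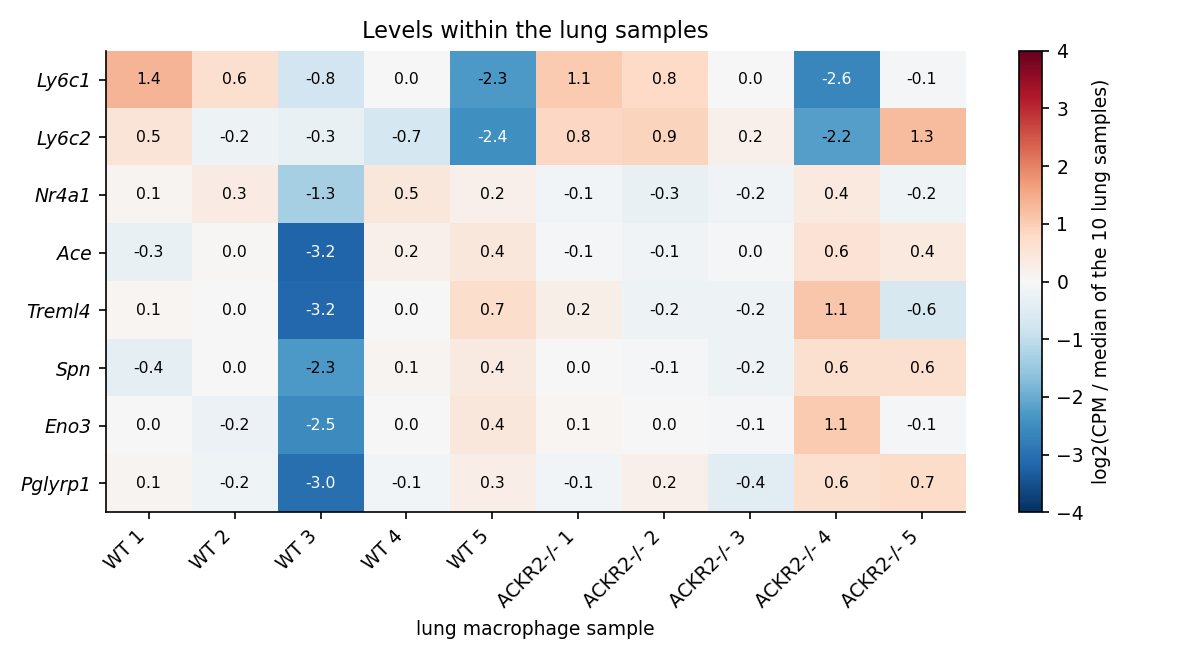
Level of each gene in each of the 10 lung samples, as log2 of its CPM over the median of the 10 samples (colour and printed value). WT replicate 3 is from -1.3 to -3.2 for the last 6 genes, and the library labelled WT replicate 5 and ACKR2-/- replicate 4 are from -2.2 to -2.6 for Ly6c1 and Ly6c2.

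The comparison of genotypes asked whether loss of ACKR2 changed these genes within a cell type. None of the 8 genes was called in monocytes, where 1.27% of all genes were called. Of the 7 tested in SPMs, none was called (0.0462% of all genes), and of the 8 tested in lung macrophages none (0.0% of all genes). DESeq2 also called none in any cell type. At an unadjusted p under 0.05, edgeR listed 2 of the 8 in monocytes (Ace and Treml4), 3 in SPMs (Ly6c2, Nr4a1 and Treml4) and 0 in lung macrophages. Over all genes tested it listed 2251 of 13246 in monocytes, 709 of 12997 in SPMs and 499 of 16824 in lung macrophages. Values of the genotypes did not overlap for 1 gene in monocytes, Ace (10.6% of all genes), for 1 in SPMs, Nr4a1 (3.33% of all genes), and for 0 in lung macrophages (0.478% of all genes).

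In monocytes Ace was at 2.501, 2.21, 2.39 and 2.35 CPM in the WT samples and at 1.61, 0.808, 1.27 and 1.13 CPM in the ACKR2-/- samples. All ACKR2-/- values lay below all WT values, at 18 to 55 reads per sample. The log2 fold change was -0.94 (SE 0.28, edgeR adjusted p = 0.129), and the exact two-sided permutation p was 0.0286, the smallest that 4 against 4 samples allow. Leaving out single samples gave -1.12 to -0.77, with adjusted p from 0.0808 to 0.317, and DESeq2 gave an adjusted p of 0.0537.

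Treml4, with few reads in monocytes, was at 1.00, 1.23, 2.08 and 0.664 CPM in WT and at 0.323, 0.224, 0.574 and 0.810 CPM in ACKR2-/- samples, from 5 to 48 reads each. The groups overlapped by 1 sample each. The log2 fold change was -1.33 (SE 0.47, edgeR adjusted p = 0.192) and the exact two-sided permutation p was 0.0571. Nr4a1 (-0.55, SE 0.30), Pglyrp1 (-0.69, SE 0.38), Ly6c1 (-0.25, SE 0.30), Ly6c2 (-0.24, SE 0.21), Eno3 (-0.13, SE 0.18) and Spn (0.17, SE 0.13) overlapped between the genotypes, with adjusted p values from 0.371 to 0.752. Thus 7 of the 8 estimates lay below 0, with a median of -0.40 against 0.00 over all genes.

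Pglyrp1 varied most within the ACKR2-/- monocytes, at 366, 616, 179 and 171 CPM. The neutrophil markers summed to 56936, 63181, 16793 and 22724 CPM in the same samples, so that the 2 samples low in Pglyrp1 were also low in these. The 10 T cell markers summed to 3.26 to 4.56 CPM in WT and 57.5 to 97.7 CPM in ACKR2-/- monocytes. All 10 were called higher in ACKR2-/- monocytes (121 of all 13246 genes tested were), and their part in the genotype values was not tested. None of the 14 classical monocyte genes was called between the genotypes in monocytes (median log2 fold change -0.26, 12 of 14 below 0), nor any of the 12 nonclassical genes tested (median -0.26, 10 below 0). Beside it, the median over all genes was 0.00. At an unadjusted p under 0.05, edgeR listed 4 of the classical genes and 1 of the nonclassical genes, beside 2251 of all 13246 genes tested. DESeq2 called 3 of the classical genes lower in ACKR2-/- and 0 of the nonclassical genes, beside 184 of all 24423 genes called lower.

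In SPMs the ACKR2-/- samples fell into 2 pairs. Ly6c2 was at 684, 59.8, 43.9 and 1307 CPM in ACKR2-/- replicates 1 to 4 and at 26.98, 101, 78.6 and 95.1 CPM in the WT samples. Replicates 1 and 4 stood above every WT sample, and replicates 2 and 3 lay inside the WT range. The log2 fold change of 2.76 (SE 0.94, edgeR adjusted p = 0.788; exact two-sided permutation p = 0.371) therefore rested on 2 of 4 samples. It was 1.78 without replicate 4 and 2.59 without replicate 1. On the same scale WT monocytes were at 3965 CPM or more.

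Treml4 showed the same pair, at 23.02 and 17.7 CPM in ACKR2-/- replicates 1 and 4 and at 5.44 and 4.65 CPM in replicates 2 and 3, against 1.85 to 7.32 CPM in WT. Its log2 fold change was 1.34 (SE 0.56, edgeR adjusted p = 0.788). Pglyrp1 was at 57.8 and 86.04 CPM in the same 2 samples and at 21.7 to 37.5 CPM in the other 6, and Ly6c1 at 8.27 and 6.58 CPM against 1.66 to 5.22 CPM. Eno3 was at 2.80 to 5.09 CPM in all 8, and the highest Spn (31.3 CPM) and Ace (2.24 CPM) values were those of WT replicate 1. Genes of both subsets, though not all, were thus high in ACKR2-/- replicates 1 and 4. In these 2 samples the sums of the 14 classical genes, 33825 and 31519 CPM, and of the 14 nonclassical genes, 4419.5 and 4798 CPM, were the highest of the 8 SPM samples, with the others at 14852 to 27678 CPM and 1899 to 3548 CPM. So were the sums of the neutrophil markers, 501 and 603 CPM against 70.5 to 235 CPM, of the NK cell markers, 66.8 and 149 CPM against 5.17 to 26.1 CPM, and of 6 large peritoneal macrophage markers, 2674 and 2952 CPM against 305 to 1998 CPM. Ifitm3 alone averaged 20663 CPM in ACKR2-/- and 20874 CPM in WT SPMs, so that the classical sums mostly reflect that gene. The part of other cells in the high values was not tested.

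Nr4a1 was the gene whose genotypes did not overlap in SPMs, at 9.58, 6.59, 7.73 and 12.1 CPM in ACKR2-/- samples and 6.32, 4.07, 2.18 and 5.97 CPM in WT. The nearest values, 6.59 and 6.32 CPM, were almost equal. The log2 fold change was 0.86 (SE 0.36, edgeR adjusted p = 0.788) and the exact two-sided permutation p 0.0286, again the smallest possible. The immediate early genes summed to 771 to 923 CPM in ACKR2-/- and 468 to 724 CPM in WT SPMs, and none of the 14 tested was called by edgeR (4 under 0.05 unadjusted), nor any by DESeq2. Spn (-0.26, SE 0.29) and Eno3 (-0.27, SE 0.27) overlapped between the genotypes, and Ace was too low in SPMs to be tested, with 60 reads in the 8 samples. No classical gene of 13 and no nonclassical gene of 12 was called in SPMs (median log2 fold changes 0.97 and 0.21, against -0.05 over all genes). Unadjusted, 6 classical genes and 1 nonclassical gene were under 0.05 with edgeR, beside 709 of all 12997 genes tested. DESeq2 called 0 of either list.

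In lung macrophages the genotypes overlapped for all 8 genes, with the library labelled WT replicate 5, which had 0 Ackr2 reads, counted as WT. Nr4a1 was at 2086 to 3335 CPM in ACKR2-/- and 1029 to 3506 CPM in WT samples (log2 fold change -0.13, SE 0.29). Ace was at 219 to 361 CPM in ACKR2-/- and 26.3 to 327 CPM in WT samples (0.33, SE 0.47), and Treml4 at 445 to 1498 and 77.9 to 1123 CPM (0.24, SE 0.52). Spn (0.44, SE 0.39), Eno3 (0.44, SE 0.42), Pglyrp1 (0.53, SE 0.46) and Ly6c2 (0.94, SE 0.59) were also without a call, and Ly6c1 was at 0.00 (SE 0.66). All 8 adjusted p values were 1.00. WT replicate 3 lowered the WT means of 6 genes, and without it the log2 fold change of Ace was 0.07, that of Eno3 0.20 and that of Treml4 -0.02. Without the library labelled WT replicate 5 it was 0.56 for Ace, 0.68 for Eno3, 0.54 for Treml4, 0.66 for Spn, 0.73 for Pglyrp1, 0.70 for Ly6c2, -0.07 for Nr4a1 and -0.25 for Ly6c1, and none of the 8 was called. No classical gene of 14 and no nonclassical gene of 13 was called (median log2 fold changes 0.18 and 0.21, against -0.04 over all genes). Unadjusted, 1 classical and 0 nonclassical genes were under 0.05 with edgeR, beside 499 of all 16824 genes tested. DESeq2 called 0 of either list. The 8 NK cell markers, led by Gzma, summed to 97.7 to 274 CPM in the WT and 269 to 1583 CPM in the ACKR2-/- lung samples, and their part in the genotype values was not tested.

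**Figure D4:**
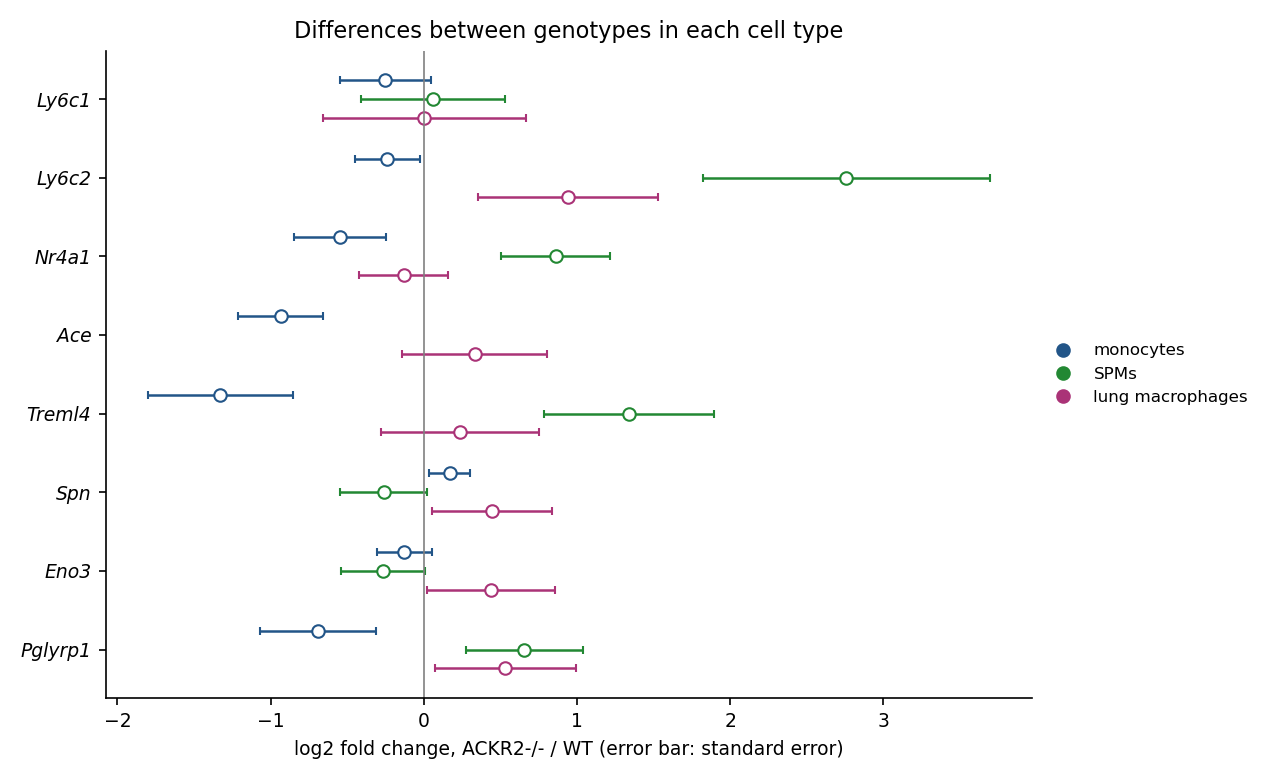
Log2 fold changes of ACKR2-/- over WT (points) and their standard errors (bars) for each gene in each cell type, with Ace not tested in SPMs. All points are open because no gene was called. The largest is Ly6c2 in SPMs, at 2.76 with a standard error of 0.94.

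The genotype differences in monocytes were tested directly against those in the other cell types. Against SPMs none of the 8 genes was called (0.253% of all genes). Of all 17792 genes tested, 1328 were under 0.05 unadjusted, and so were 3 of the 8. These were Ly6c2 (difference of log2 fold changes -3.05, SE 1.05, adjusted p = 0.411), Treml4 (-2.72, SE 0.93, adjusted p = 0.407) and Nr4a1 (-1.49, SE 0.51, adjusted p = 0.399). Against lung macrophages none of the 8 was called (0.152% of all genes) and 0 were under 0.05 unadjusted (1080 of all 17792 genes). Treml4 was at -1.60 (SE 0.87) and Ace at -1.29 (SE 0.72). DESeq2 called none of the 8 in either test.

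The genes with the most similar pattern were found from log2 CPM, each centred over the 26 samples, by the root mean square (RMS) difference. The difference mostly reflects the 3 cell types, since samples of a type share tissue and table. Where a gene lies below 0.5 CPM, its level on this scale is set mostly by the 0.5 CPM added before the logarithm. Nr4a1, Ace and Eno3 were alike: Ace and Nr4a1 differed by 0.72 and Ace and Eno3 by 0.68. The nearest genes to Nr4a1 were Dusp2 (0.70), Ace and Gm19719 (0.78), and to Ace they were Slc26a10 (0.64), Eno3 and Nr4a1. Eno3 was nearest to Gm43495 (0.35), Nrarp (0.38) and Gm44729 (0.41). These averaged at most 0.115 CPM in WT monocytes and 0.0463 CPM in WT SPMs, where Eno3 averaged 6.56 and 3.88 CPM. Their likeness to Eno3 thus depends on the added 0.5 CPM. Spn and Pglyrp1 differed by 0.84, and their own nearest genes were Msrb1 (0.31), Cnst (0.33) and Fut4 (0.36) for Spn and Gsr (0.47), Tmem38b (0.52) and Megf9 (0.60) for Pglyrp1.

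Ly6c1 and Ly6c2, in contrast, differed from each other by 4.41. The nearest genes to Ly6c1 were Smad6 (0.61), Apold1 (0.61) and Tnfaip6 (0.64). Those nearest to Ly6c2 were Plk1 (1.05) and Ccnb1 (1.14), which drive mitosis, and Cd177 (1.17), a surface protein of neutrophils. Treml4 was nearest to Tgm2 (0.85), Trem1 (0.93) and Gm6377 (0.94). Tgm2, a transglutaminase, was at 11.9 and 21.7 CPM in ACKR2-/- SPM replicates 1 and 4 and at 0.569 to 1.99 CPM in the other 6. Trem1, an activating receptor of myeloid cells, was at 12.7 and 20.2 CPM in the same 2 samples and at 0.806 to 1.87 CPM in the other 6. Both genes thus shared with Treml4 the 2 high SPM samples.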

How the data were processed

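Mouse monocytes, SPMs and MHCII negative lung macrophages of WT and ACKR2-/- mice were sorted, and their polyadenylated RNA, after SMARTer amplification, was read from both ends over 150 bases. Each cell type has a table that the authors deposited, with raw read counts of genes in rows and samples in columns. The submitters' processing notes name HISAT2 2.0.5, featureCounts 1.5.0-p3, DESeq2 and mm10 without their roles, and how strand and multi-mapped reads were treated is not stated there. The 5 summary lines of the lung table, 56.3% of its counts, were left out.

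Counts were tested with edgeR 4.0.16 in R 4.3.3 (quasi-likelihood test, filterByExpr with minimum count 10 and total 15, TMM factors, Benjamini-Hochberg adjustment). Genotypes were compared within each table. Cell types, and differences between genotype effects, were tested in a fit of 6 groups over the genes that all tables hold. CPM used library sizes on tested genes and TMM factors of that fit. Gene patterns used log2(CPM + 0.5). A count of 0 was taken to allow 3 reads, for counting error only, and reads without molecular identifiers are not independent molecules. Each sample was also left out in turn, and the tests were repeated with the replicate number as a block, with only the 2 WT groups, with RLE factors, without the low-count filter and with DESeq2 1.42.0. Scripts were checked on simulated data.

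The genes, the lists of subset and marker genes, and the tests were chosen with earlier results of these data known. Named were the 8 genes, called genes of the subset lists (in cell type comparisons up to 4 per list with the largest change), the monocyte and macrophage markers (1 result is not reported here), the leading gene of other marker lists, the 3 genes nearest in pattern to each of the 8, Ackr2 and genes overlapping one of the 8. Samples were grouped by the labels, and all columns were mapped (0 left over). No pair of replicates looked like 1 library deposited again, the lowest chi-square between a pair being 10.6 per degree of freedom. P-values over monocyte and SPM samples measure the spread between pools of mice, and those over lung samples the spread between these samples, which are single mice if the general statement of the methods holds for them.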

Additional observations from a re-analysis of the deposited data

Results flagged for a closer look

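Of 48 groups of values, 8 genes in each of 6 groups, 3 held a sample whose gap to its nearest neighbour was large for the range of its group (Dixon's criterion at 95%), and chance alone gives about 1 in 20. Eno3 was at 1037 CPM in ACKR2-/- lung macrophage replicate 4, with the other ACKR2-/- lung samples at 467 to 519.7 CPM. Nr4a1 was at 3335 CPM in the same sample, with the others at 2086 to 2355 CPM. Ace was at 2.24 CPM in WT SPM replicate 1, from 29 reads, with the other WT SPM samples at 0 to 0.311 CPM.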

How the results depend on the processing

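No gene of the 8 was called in a genotype comparison, or in a difference between genotype effects, under any alternative. In the cell type comparisons leaving out single samples gave 4 to 6 calls of 8 between monocytes and SPMs, 6 to 7 between monocytes and lung macrophages and 7 to 8 between SPMs and lung macrophages, where the call of Ly6c2 was gained without WT SPM replicate 1 (adjusted p = 0.0392), without WT lung replicate 1 (adjusted p = 0.0378) and with only the 2 WT groups (adjusted p = 0.0124). The lowest count, 4, came without WT SPM replicate 2 and without WT monocyte replicate 4, when Ace and Treml4 lost their calls.

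Counts over all genes moved more. In monocytes 168 genes were called between the genotypes, and 346 without the filter on low counts, 540 with DESeq2 and 76 (without WT replicate 1) to 413 (without ACKR2-/- replicate 3) with single samples left out. In SPMs 6 became 52 without the filter, 30 with DESeq2 and 3 to 8 with samples left out. In lung macrophages 0 were called, with 499 under 0.05 unadjusted, and 21 with DESeq2. For the genotype effect in monocytes against SPMs 45 became 135 with DESeq2 and 29 to 57 with samples left out, and against lung macrophages 27 became 42 without the filter, 113 with DESeq2 and 13 to 53 with samples left out, the highest without the library labelled WT replicate 5. The cause was not tested.

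Some estimates of genotype differences changed sign when a sample was left out. In monocytes Ly6c1 ranged from -0.48 to 0.0073. In SPMs Ly6c1 ranged from -0.36 to 0.35. In lung macrophages Ly6c1 ranged from -0.26 to 0.47, Treml4 from -0.086 to 0.54 and Nr4a1 from -0.30 to 0.0128. In the difference between monocytes and SPMs Eno3 ranged from -0.10 to 0.17, Ace from -1.87 to 0.50 and Ly6c1 from -0.67 to 0.0104, and in that between monocytes and lung macrophages Ly6c1 ranged from -0.76 to 0.0361. RLE factors moved the median log2 fold change of all genes from 0.00 to -0.16 between WT monocytes and SPMs, and reversed none of the 8. Among the 14 classical genes, 3 were called lower in ACKR2-/- monocytes with DESeq2, beside 184 of all 24423 genes.

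Correlations of deviations between samples with the same replicate number ran from -0.12 to 0.31 in monocytes, -0.09 to 0.02 in SPMs and -0.08 to 0.64 in lung. Those between samples with different numbers ran from -0.34 to 0.23, -0.08 to 0.07 and -0.64 to 0.70. The ranges overlapped, so pairing by number was not evident, and the main tests used none. With the replicate block the genotype comparisons called 186, 6 and 0 genes in monocytes, SPMs and lung macrophages, the monocyte and lung difference called 17, Pglyrp1 was called between WT monocytes and lung macrophages (adjusted p = 0.0305), the Ly6c2 genotype difference in SPMs was 1.63 (adjusted p = 0.997) in place of 2.76, and the signs of Ly6c1 in SPMs (-0.18) and of Ace in the monocyte and SPM difference (-0.0775) were reversed.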
